A study of Rattus norvegicus with 7 samples.

Results

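Interstitial fibroblasts were followed as nuclei in single-nucleus RNA libraries of 7 kidneys from 4-week-old HSRA rats, a rat line in which some offspring are born with a single kidney. By title, 3 libraries come from animals with 1 kidney (1-kidney libraries) and 4 from animals with 2 (2-kidney libraries). Elsewhere the labels speak of HSRA-S (3 animals) and HSRA-C (4 animals), name no treatment, sex or allele for either group, and describe archived tissue from a central section that holds both cortex and medulla. Each library was taken as 1 animal, since each title carries its own animal number. A nucleus was called a fibroblast when it held at least 3 unique molecular identifiers (UMIs, each counting 1 captured transcript) of 6 genes, Pdgfra, Col1a1, Col1a2, Col3a1, Dcn and Col6a3, from at least 2 of them. It could carry at most 1 UMI of the mural genes Myh11 and Notch3 together and at most 1 of the endothelial genes Flt1 and Kdr together. The feature table matched 4 of the 6 genes by symbol, and Col1a2 and Col6a3 were not used here. The rule kept 249 of 30746 nuclei (0.810%), with 743507 UMIs.

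Interstitial fibroblasts fill the space between the tubules and vessels of the kidney. They lay down collagens and other matrix proteins, signal to the neighbouring epithelium through growth factors, and receive platelet-derived growth factor through the receptors Pdgfra and Pdgfrb. When activated they take on contractile features and are a main source of scar matrix in chronic kidney disease. Kidney fibroblasts descend from a Foxd1-positive stroma of the embryonic kidney and differ between cortex and medulla.

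The genes that chose the nuclei are described first, without a test. Pdgfra, the receptor that marks kidney fibroblasts, gave 464 UMIs in 199 of the 249 nuclei. Col3a1, a fibrillar collagen, gave 305 UMIs in 178 nuclei, and Dcn, the small proteoglycan decorin that binds collagen fibrils, 305 UMIs in 162. Col1a1, a chain of type I collagen, gave 218 UMIs in 118 nuclei. These are sparse counts, and 84 nuclei sat exactly at the bound of 3 UMIs while 165 lay above it. Just outside the rule were 149 nuclei with 2 UMIs from 2 genes, 44 with 3 or more UMIs from 1 gene, and 23 set aside by their vessel genes. All retained nuclei together held 4053 UMIs of the 4 genes, and 1292 of those lay in the chosen nuclei.

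Other fibroblast markers were detected in the chosen nuclei. The fibroblast marker list held 13 measured genes outside the rule, and 12 of them had a UMI in the chosen nuclei, 5244 UMIs in all. Lum, which encodes lumican, had none, which over the UMIs of all the chosen nuclei allows up to 4.03 CPM (counts per 1000000 UMIs of the summed nuclei), for counting error only. Per library, the summed level of these 13 genes was 36.5 to 63.3 per 10000 UMIs in the 1-kidney and 58.4 to 83.2 in the 2-kidney fibroblasts, beside 5.54 to 8.56 in all other nuclei of the 1-kidney and 8.83 to 10.4 in those of the 2-kidney libraries. Endothelial nuclei stood nearer, at 9.32 to 17.5 in the 1-kidney and 17.9 to 26.5 in the 2-kidney libraries. Markers of blood cells were few, with 48 UMIs over 14 macrophage and dendritic genes and 50 over 12 lymphocyte genes. Per 10000 UMIs, macrophage and dendritic genes stood at 0 to 1.56 in the 1-kidney and 0.118 to 1.01 in the 2-kidney fibroblasts. That overlapped all other nuclei, at 0.624 to 0.902 and 0.493 to 1.06. Lymphocyte genes stood at 0 to 0.670 and 0.602 to 0.785, beside 0.915 to 1.29 and 1.28 to 1.80. The Schwann cell genes Sox10 and S100b had no UMI. Markers of smooth muscle, pericytes and mesangium were present, with 1019 UMIs over 13 measured genes outside the rule, 11 of which had a UMI. Itga8, Pdgfrb (also on the fibroblast list) and Abcc9 gave most of them, while the pericyte gene Rgs5 had none. Their summed level was 8.30 to 12.3 per 10000 UMIs in the 1-kidney and 9.98 to 15.2 in the 2-kidney fibroblasts, beside 1.41 to 1.94 and 1.71 to 2.68 in all other nuclei. Epo, the erythropoietin gene of oxygen-sensing interstitial cells, and Penk had no UMI.

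Transcripts of the tubule were present in these nuclei. The summed level of 15 proximal tubule markers was 143 to 260 per 10000 UMIs in the 1-kidney fibroblasts and 81.9 to 171 in the 2-kidney fibroblasts, beside 310 to 381 in all other nuclei of the 1-kidney and 183 to 321 in those of the 2-kidney libraries. The proximal tubule median was higher in the 1-kidney libraries in all other nuclei too, at 356 and 267, although the ranges overlapped. Distal convoluted and connecting tubule markers stood at 7.56 to 40.1 in the 1-kidney and 10.7 to 15.6 in the 2-kidney fibroblasts. In all other nuclei they stood at 41.1 to 46.8 and 40.2 to 46.3. Thick ascending limb markers stood at 6.61 to 19.7 and 10.3 to 15.4 in fibroblasts. They stood at 23.7 to 29.4 and 29.8 to 42.7 in all other nuclei. In 59 of the 249 nuclei, tubule and podocyte markers exceeded 2% of the UMIs. These were 1 of 6, 4 of 10 and 9 of 15 fibroblasts in 1-kidney replicates 1 to 3. In 2-kidney replicates 1 to 4 they were 18 of 85, 10 of 29, 11 of 43 and 6 of 61. In fibroblasts the 2 groups overlapped in the proximal tubule level and the 1-kidney median was the higher (239 against 137). That level stands beside every gene result below. A rank by doublet score placed 16 of the 249 nuclei among those removed as likely doublets. No chosen nucleus shared its barcode with another library, although 104 barcodes occurred in more than 1 library.

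Against all other nuclei the chosen nuclei carried a broad matrix and stromal profile, given as a description because the same nuclei were selected on 4 of its genes. Of 4241 genes with a mean of at least 50 CPM in fibroblasts, 53% lay above the other nuclei, 14.9% lay over 2-fold above, and 179 lay over 10-fold above. The 20 genes of largest ratio outside the rule ran from 37.2-fold to 60.0-fold, and 18 of them were higher in all 7 libraries. Several encode matrix proteins. Smoc2, a secreted matricellular protein, averaged 403 CPM in fibroblasts and 6.75 CPM in other nuclei (59.6-fold). Tnc, the matrix glycoprotein tenascin C, averaged 196 against 3.66 CPM (53.5-fold). Svep1, a large extracellular adhesion protein, was at 780 against 17.5 CPM, and Fbln5, an elastic fibre protein, at 1477 against 36.5 CPM. Adamts2, the protease that removes the amino-terminal propeptide of fibrillar procollagens, was at 330.01 against 7.66 CPM.

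The other leading genes had further roles. C7, a complement component, averaged 1177 CPM against 28.2 CPM in other nuclei. Il31ra, a cytokine receptor chain, was 50.02-fold higher, Zfpm2, a cofactor of GATA transcription factors, 48.8-fold, and Prrx1, a homeobox factor of mesenchyme, 37.2-fold.

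**Figure D1:**
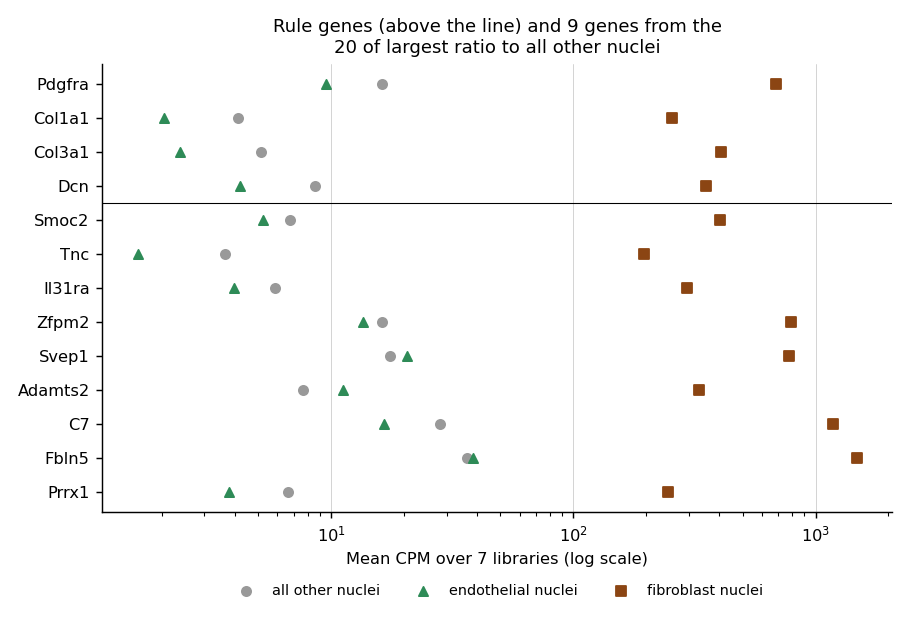
Mean CPM over 7 libraries on a log axis for the 4 measured rule genes and 9 genes from the 20 of largest ratio, in fibroblast nuclei (squares), endothelial nuclei (triangles) and all other nuclei (circles). In each of the 9 genes the fibroblast value lies at least 37.2-fold above that of all other nuclei.

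The gene lists varied in how far fibroblasts stood above other nuclei. Among genes of at least 50 CPM, with the genes of the rule left out of every list count here and below, 20 of 24 matrix glycoproteins and proteoglycans, 7 of 8 collagen processing genes, 12 of 14 Wnt and hedgehog genes and 14 of 20 contractile genes were over 2-fold above other nuclei, against 14.9% of all such genes. Collagens were over 2-fold above in 9 of 13 and stromal transcription factors in 8 of 13. No unfolded protein response gene of 10, cell cycle gene of 5 or cholesterol synthesis gene of 2 was over 2-fold above. Those lists are too short to be told apart from the 14.9% of all such genes. Col12a1, a collagen associated with fibrils, averaged 1096 CPM against 29.98 CPM, and Lama2, a laminin chain, 972 against 35.4 CPM. Pdgfrb, the second receptor for platelet-derived growth factor, was at 344 against 9.80 CPM.

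Within the 249 nuclei, clustering of expression gave 4 groups, numbered by size and left unnamed. Their leading genes helped to define them and are a description only. Group 1 (96 nuclei) was led by Aox1, Igfbp3 and Il31ra. Igfbp3, a secreted protein that binds insulin-like growth factors, had a UMI in 75 of its 96 nuclei and was 8.93-fold above the other fibroblasts. C7 was at 2357 CPM in group 1 and 503 CPM in the rest. Group 2 (89 nuclei) was led by the chloride channel gene Ano1 (24.0-fold), Lrriq1, the homeobox gene Alx1 and Smoc2, the last at 1212 CPM against 76.6 CPM in the rest. Both groups held the rule genes, with Pdgfra in 85.4% of group 1 and 79.8% of group 2.

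Groups 3 and 4 differed from these. In group 3 (55 nuclei), 46 nuclei exceeded 2% tubule and podocyte markers, and the median share was 3.34%, beside 0.868% in group 1 and 0.949% in group 2. Its leading genes included Slc7a12 and Slc5a8, both membrane transporters, and its median depth of 3565 UMIs was the highest of the 4 groups. Group 4 held 9 nuclei from 4 libraries, led by the growth factor Fgf7, the homeobox gene Meox2 and the neurotrophin receptor gene Ntrk3, with 12, 11 and 29 UMIs.

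Groups 1, 2 and 3 each occurred in all 7 libraries. Group 1 made up 33.3%, 30% and 13.3% of the fibroblasts in 1-kidney replicates 1 to 3, and 50.6%, 20.7%, 32.6% and 42.6% in 2-kidney replicates 1 to 4. Group 3 made up 33.3%, 40.0% and 46.7% against 14.1%, 24.1%, 34.9% and 13.1%. The ranges of the 2 kinds of library overlapped for both, and with 6, 10 and 15 nuclei in the 1-kidney libraries no test was made.

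**Figure D2:**
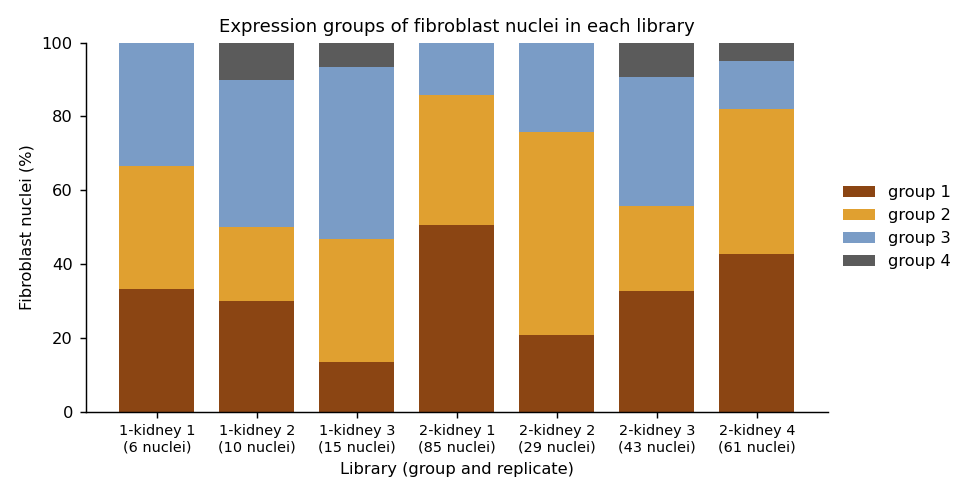
Share of fibroblast nuclei (%) in each of the 4 expression groups, 1 bar per library, with the number of nuclei under it. Group 3, the one rich in tubule transcripts, takes 33.3% to 46.7% in the 1-kidney and 13.1% to 34.9% in the 2-kidney libraries.

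The first comparison asked whether fibroblasts took the same share of nuclei in both kinds of kidney. The rule found 6, 10 and 15 fibroblasts among 2250, 4367 and 4222 nuclei of 1-kidney replicates 1 to 3. It found 85, 29, 43 and 61 among 3848, 4377, 5896 and 5786 nuclei of 2-kidney replicates 1 to 4. The shares were 0.267%, 0.229% and 0.355% in the 1-kidney libraries and 2.21%, 0.663%, 0.729% and 1.05% in the 2-kidney libraries. Every 2-kidney library lay above every 1-kidney library, and 2-kidney replicate 1 stood above the rest with 34.1% of all the fibroblasts. The means were 0.284% ± 0.0648 (SD, n = 3) and 1.16% ± 0.717 (SD, n = 4), a ratio of 4.10. The difference did not pass the threshold of 0.05 in a two-sided exact permutation test of the difference in means (p = 0.0857, adjusted p = 0.171 over 2 tests), whose smallest possible p is 0.0286. Without 2-kidney replicate 1 the mean shares were 0.284% and 0.815%, a ratio of 2.87.

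Depth per fibroblast overlapped between the groups. The median fibroblast held 1754, 1848 and 2064 UMIs in the 1-kidney and 3267, 2385, 1642 and 2207 in the 2-kidney libraries (exact permutation p = 0.286). The median over all retained nuclei was 1412, 1642 and 1867 UMIs in the 1-kidney libraries. It was 1765, 2101, 2060.5 and 2362.5 in the 2-kidney libraries, so only 2-kidney replicate 1 lay below a 1-kidney library. When each nucleus was thinned to 1000 UMIs, leaving out 2900 shallower nuclei of the 1-kidney and 3435 of the 2-kidney libraries, 1, 3 and 5 nuclei met the rule in the 1-kidney and 24, 8, 19 and 16 in the 2-kidney libraries. The thinned shares were 0.105% ± 0.0431 (SD, n = 3) and 0.437% ± 0.265 (SD, n = 4), again without overlap (exact permutation p = 0.0571). A wider rule, chosen after seeing the data, asked for at least 4 UMIs from at least 3 genes of a longer marker list and kept 874 nuclei, 241 of the 249 among them. Its shares were 1.49% ± 0.452 (SD, n = 3) and 3.58% ± 1.32 (SD, n = 4), also without overlap (exact permutation p = 0.0571).

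The level of the rule genes over all nuclei did not separate the libraries. Scaled as CPM of all retained nuclei, Pdgfra, Col1a1, Col3a1 and Dcn together stood at 25.6, 44.0 and 30.2 in the 1-kidney libraries. The 2-kidney libraries stood at 107, 43.8, 45.3 and 51.1, so 1-kidney replicate 2 lay above 2-kidney replicate 2. The chosen nuclei held 9.0% to 20.2% of those UMIs in the 1-kidney and 26.9% to 52.5% in the 2-kidney libraries. How much cortex and how much medulla each section held was not analysed here.

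**Figure D3:**
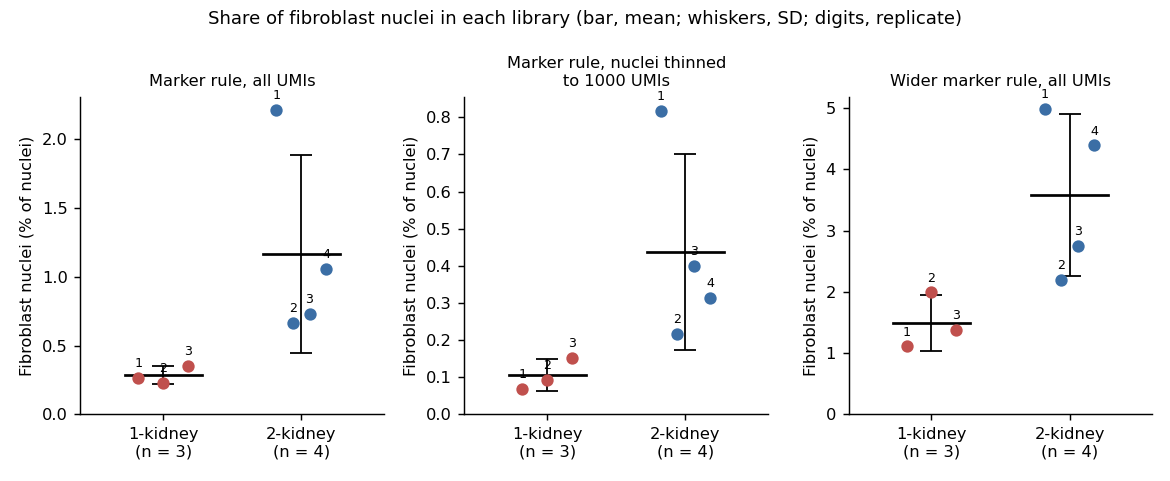
Fibroblast nuclei as a percentage of nuclei in each library, by the marker rule, by the same rule after thinning to 1000 UMIs, and by the wider rule (points, libraries with their replicate number, bars, mean, whiskers, SD). In all 3 panels the 4 2-kidney libraries lie above the 3 1-kidney libraries.

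The second comparison asked which genes differed between 1-kidney and 2-kidney fibroblasts, from counts summed per library over 31 nuclei (83050 UMIs) and 218 nuclei (660457 UMIs). No gene passed an adjusted p of 0.05 in edgeR's quasi-likelihood test (0% of 2134 genes tested), and the smallest adjusted p was 0.0957. At an unadjusted p under 0.05 stood 281 genes, 13.2% of those tested. DESeq2 called 7 genes (0.328%), with Chd1l and Slc27a2 higher and Ldb2, Rbms1, Igfbp3, Adam12 and Grk5 lower in 1-kidney fibroblasts. The median log2 fold change (1-kidney over 2-kidney) of all tested genes was −0.03. All folds below are on that scale with their standard error (SE), and the 2-kidney replicate 1 library holds 42.8% of the fibroblast UMIs.

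The 10 genes of smallest p failed the adjusted threshold, with adjusted p from 0.0957 to 0.115 in edgeR's test, and 6 of them were lower in the 1-kidney fibroblasts. Vcl, which encodes vinculin, the protein that ties integrin adhesions to actin, had 0, 0 and 3 UMIs in 1-kidney replicates 1 to 3 and 110, 32, 28 and 50 in 2-kidney replicates 1 to 4. That is 0, 0 and 67.0 CPM against 346, 386, 314 and 294 CPM, with no overlap and a log2 fold change of −3.19 (SE 0.64). Igfbp3 was at 0, 144 and 89.4 CPM against 1295, 325, 594 and 347 CPM, also without overlap (−2.78, SE 0.67). Prickle2, a planar cell polarity gene, was at 0, 36.1 and 22.3 CPM against 204, 193, 146 and 229 CPM (−2.97, SE 0.70). Each of these 3 genes rests on 8 or fewer UMIs in all 1-kidney fibroblasts.

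The other lower genes had more counts. Rbms1, an RNA-binding protein, was at 472, 361 and 402 CPM in the 1-kidney and 1345, 940, 931 and 1158 CPM in the 2-kidney fibroblasts, without overlap (−1.46, SE 0.36). Adam12, a metalloprotease raised in activated fibroblasts, was at 661, 72.2 and 223 CPM against 1364, 1229, 538 and 858 CPM, where 1-kidney replicate 1 lay above 2-kidney replicate 3 (−2.04, SE 0.52). Rasgef1b, a guanine nucleotide exchange factor, was at 120 ± 77.4 CPM (SD, n = 3) against 414 ± 69.9 (SD, n = 4), a log2 fold change of −1.90 (SE 0.48).

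The remaining 4 of the 10 were higher in 1-kidney fibroblasts. Chd1l, a chromatin remodeller, was at 1417, 505 and 782 CPM against 192, 361, 112 and 212 CPM (1.91, SE 0.39). Slc27a2, a fatty acid transporter and acyl-CoA synthetase, was at 472, 939 and 894 CPM against 248, 373, 224 and 276 CPM (1.56, SE 0.34). G6pc, glucose-6-phosphatase, and Akr1c1, an aldo-keto reductase, had log2 fold changes of 2.08 (SE 0.48) and 1.45 (SE 0.36). All 4 averaged lower CPM in fibroblasts than in all other nuclei, at 0.77-fold for Chd1l, 0.67-fold for Slc27a2, 0.75-fold for G6pc and 0.70-fold for Akr1c1. Slc27a2 is itself one of the proximal tubule markers, of which 12 of 13 tested lay above 0 with a median log2 fold change of 0.63. Their part in these values was not tested.

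**Figure D4:**
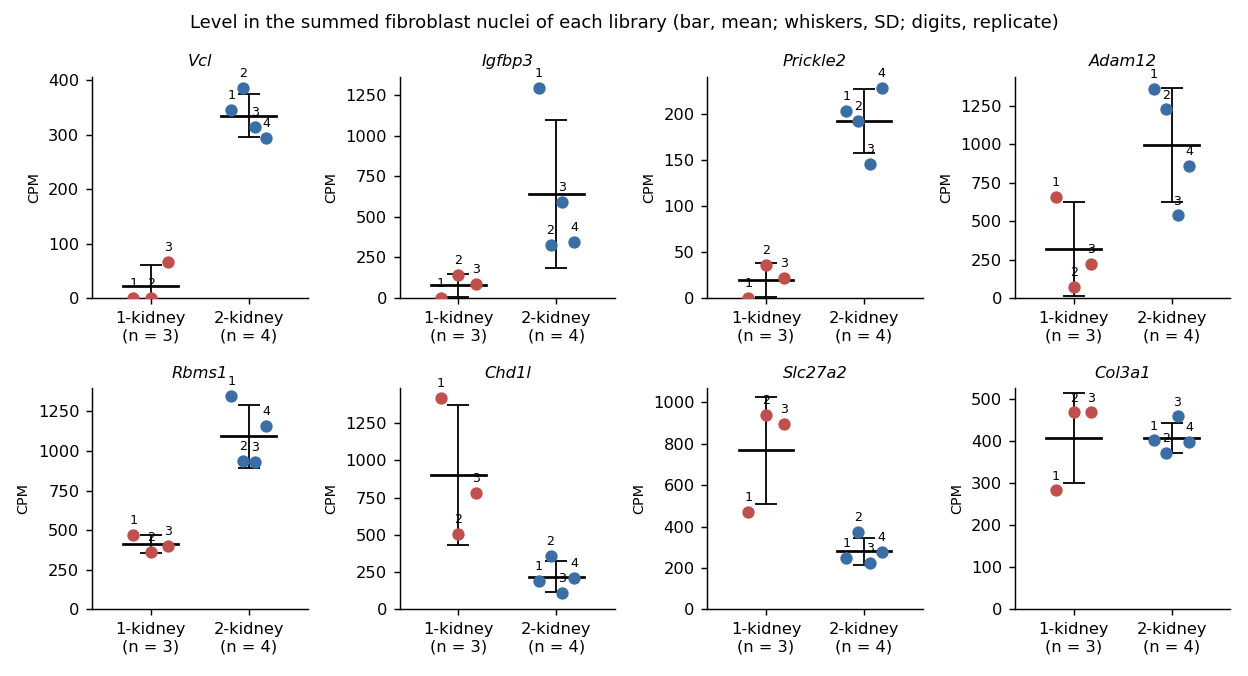
CPM in the summed fibroblast nuclei of each library for 7 of the 10 genes of smallest p and for Col3a1 (points, libraries with their replicate number, bars, mean, whiskers, SD). Col3a1 is a rule gene that helped to choose the nuclei, so its level is a description and no reference for the other genes. Vcl, Igfbp3, Prickle2 and Rbms1 are lower and Chd1l and Slc27a2 higher in all 1-kidney libraries, Adam12 overlaps, and Col3a1 averages 407 and 409 CPM.

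Of the 4 measured rule genes, 3 overlapped between the groups. Pdgfra averaged 679 ± 312 CPM (SD, n = 3) and 692 ± 127 (SD, n = 4), and Col3a1 407 ± 107 and 409 ± 36.3. Col1a1 averaged 193 ± 89.2 and 302 ± 133. Dcn was lower in every 1-kidney library, at 283, 253 and 223 CPM against 472, 434, 471 and 335 CPM. Since these genes chose the nuclei, their levels within them are a description.

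Most matrix genes had lower levels in the 1-kidney fibroblasts without passing the threshold. Of 19 tested matrix glycoproteins and proteoglycans, 17 had a log2 fold change below 0, with a median of −0.73, beside 1096 of 2134 genes and a median of −0.03 over all genes. The libraries did not overlap, with all 1-kidney values lower, in 2 of the 19, against 9.04% of all tested genes. Of 9 tested fibroblast markers outside the rule, some of them also matrix genes, 8 lay below 0 (median −0.73), as did all 3 tested smooth muscle, pericyte and mesangial markers (median −0.57), and their part in the list values was not tested. Fbln5 was at 1120 ± 534 CPM (SD, n = 3) against 1745 ± 322 (SD, n = 4), and Spon1, the secreted protein F-spondin, at 852 against 1280 CPM, without overlap. Collagens had 9 of 10 below 0 and a median of −0.49. Col11a1, a minor fibrillar collagen, had 0, 3 and 0 UMIs against 72, 6, 15 and 24. Collagen processing genes divided 5 below and 3 above 0 (median −0.02), with Tgm2, the crosslinking enzyme transglutaminase 2, at 0, 0 and 67.0 CPM against 160, 108, 123 and 135 CPM. Proteases and their inhibitors had 6 of 7 below 0 and a median of −0.93, and Timp3, a metalloprotease inhibitor, was at 944, 578 and 715 CPM against 1314, 1638, 1435 and 1046 CPM. No gene of any of these lists passed the adjusted threshold, and a gene could be tested through the deeper 2-kidney libraries alone.

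Signalling lists differed in their spread. As above, a gene could be tested through the deeper 2-kidney libraries alone, so the counts of genes below 0 are a description. All 9 tested Wnt and hedgehog genes lay below 0 (median −0.85). Gli2, a transcription factor of the hedgehog pathway, was at 0, 36.1 and 44.7 CPM against 223, 193, 157 and 141 CPM, and Dkk2, a secreted modulator of Wnt signalling, at 472, 0 and 179 CPM against 1323, 386, 336 and 535 CPM. Of 14 tested genes of TGF-beta and BMP signalling 11 lay below 0 (median −0.73), and none of the 14 reached an unadjusted p under 0.05, against 13.2% of all tested genes. By the wider rule 6 of 23 did in edgeR's test, against 14.5% of all genes tested. Growth factors and their binding proteins had 14 of 16 below 0 (median −0.53), Igfbp3 among them. Platelet-derived growth factor signalling had 2 tested genes outside the rule, and Pdgfrb averaged 343 and 344 CPM (−0.38, SE 0.43).

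Stromal transcription factors and contractile genes were also mostly below 0, with the same limit on which genes could be tested. Among 13 tested stromal transcription factors 12 lay below 0 (median −0.85) and 6 were lower in all 1-kidney libraries, against 9.04% of all tested genes. Runx2, known from osteoblasts and activated mesenchyme, was at 0, 72.2 and 44.7 CPM against 289, 145, 303 and 176 CPM (−2.24, SE 0.64). Zeb2, a repressor active in mesenchyme, was at 1605, 939 and 1162 CPM against 2669, 2000, 2007 and 1769 CPM (−0.85, SE 0.34). Ebf1, which marks stromal and vascular cells, was also lower in every 1-kidney library. Among 13 contractile and myofibroblast genes 10 lay below 0 (median −0.94) and 4 were without overlap, Vcl among them. Cald1, the actin-binding caldesmon, was not among them, at 2455, 758 and 1162 CPM against 1213, 1578, 628 and 946 CPM.

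Few genes of stress and hormone response lists could be tested. Immediate early and heat shock genes had 3 of 4 above 0 (median 0.69), and Hsp90ab1, a cytosolic chaperone, was higher in every 1-kidney library, at 472, 289 and 424 CPM against 214, 108, 179 and 182 CPM (1.11, SE 0.38). Genes without overlap in that direction made up 5.3% of all tested genes. Unfolded protein response genes had 4 of 5 above 0 (median 0.31). The 6 tested glucocorticoid response genes divided evenly, with Nr3c2, the mineralocorticoid receptor, lower in every 1-kidney library. Regional genes of the interstitium divided 4 and 4, and Dpt, the matrix protein dermatopontin, was at 0, 0 and 67.0 CPM against 239, 121, 112 and 129 CPM.

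**Figure D5:**
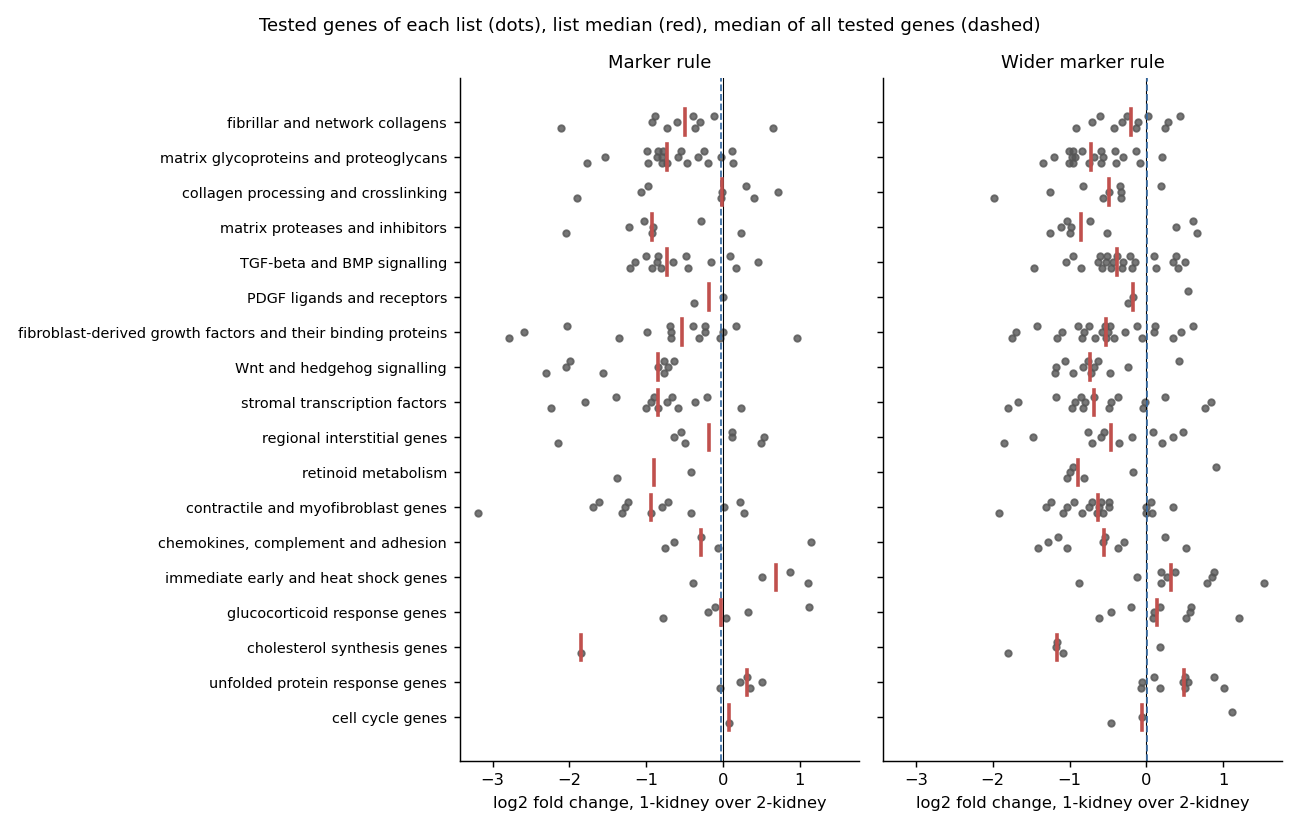
Log2 fold change (1-kidney over 2-kidney) of each tested gene of 18 lists (dots), the genes of each rule left out, by the marker rule and by the wider rule, with the list median (red) and the median of all tested genes (dashed). By the marker rule, medians range from −1.85, for a list with 1 tested gene, to 0.69, for immediate early and heat shock genes.

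The lists were counted again with other sets of nuclei. Leaving out the tubule-rich nuclei kept 5, 6 and 6 fibroblasts in 1-kidney replicates 1 to 3. Of the 1089 genes then tested, 582 lay below 0 (median −0.06). Without the 59 nuclei rich in tubule and podocyte markers, 11 of 16 matrix glycoproteins lay below 0 (median −0.25), as did 10 of 11 stromal transcription factors (−0.47), 7 of 7 Wnt and hedgehog genes (−0.64) and 8 of 10 contractile genes (−0.99). Fibroblast markers outside the rule had 8 of 8 below 0 (median −0.47). The 5 proximal tubule markers still tested all lay above 0 there (median 0.98). With the wider rule 5108 genes were tested and again 0% passed in edgeR's test, while 741 genes (14.5%) had an unadjusted p under 0.05. Leaving out the marker genes that the wider rule used, 19 of 20 matrix glycoproteins lay below 0 (median −0.72) and 9 of the 20 were lower in all 1-kidney libraries, against 8.54% of all genes tested. For stromal transcription factors 7 of 17 were lower in all 1-kidney libraries and 1 was higher, against 6.7% of all genes tested in the higher direction. Contractile genes had 4 of 20 lower in all 1-kidney libraries, proteases and their inhibitors 5 of 10, and growth factors and their binding proteins 7 of 24. Wnt and hedgehog genes had 4 of 12, and TGF-beta and BMP genes 4 of 23. Vcl had a log2 fold change of −1.92 (SE 0.39), Timp3 −1.26 (SE 0.23) and Loxl1, a lysyl oxidase that crosslinks elastin, −1.98 (SE 0.36), each with an adjusted p of 0.0537 in edgeR's test.

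The last comparison asked whether the group difference in fibroblasts differed from that in endothelial nuclei of the same libraries, of which there were 2627. In edgeR's test, 2 of 7582 genes passed (0.0264%), and 589 (7.77%) had an unadjusted p under 0.05. Over all 7582 genes the median difference in effect was −0.39, with 5290 genes below 0. Adamts9, a secreted metalloprotease of the matrix, was at 1133, 180.49 and 335 CPM in the 1-kidney and 802, 952, 740 and 1023 CPM in the 2-kidney fibroblasts, where 1-kidney replicate 1 was the highest library. In endothelial nuclei it was at 146, 199 and 146 CPM against 114, 128, 123 and 146 CPM. The effect in fibroblasts was lower by 1.89 on the log2 scale (SE 0.40, adjusted p = 0.0176). Akap12, a scaffold protein for protein kinase A, had 0, 0 and 4 UMIs against 58, 16, 9 and 17 in fibroblasts. In endothelial nuclei it was at 263, 112 and 272 CPM against 103, 170, 74.1 and 93.1 CPM, and the effects differed by −3.03 (SE 0.68, adjusted p = 0.0275). Neither call held with RLE scaling, without the 2 libraries of set P1117B, or without 1-kidney replicate 2, where the values were −1.36 for Adamts9 (adjusted p = 0.492) and −2.75 for Akap12 (adjusted p = 0.386) in edgeR's test. Adamts9 was called in 2 of the 7 fits that left out 1 library and Akap12 in none.

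Against all other nuclei, no gene's effect differed in edgeR's test (0% of 12087 genes, 6.63% at an unadjusted p under 0.05, smallest adjusted p 0.0527). The median difference in effect was −0.53 there, with 8459 of the 12087 genes below 0. The 3 genes of smallest p were Grid1, Vcl and Adamts9. Grid1, a glutamate receptor family gene, had no UMI in the 1-kidney fibroblasts and 12, 3, 5 and 14 UMIs in the 2-kidney fibroblasts. Mural nuclei numbered 58, from 3 to 15 per library, and were not compared.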

How the data were processed

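Per the submitters' processing notes, Cell Ranger 7.0 was used, and the authors deposited raw UMI counts by gene and barcode for 7 libraries. No genome build is named in the sources used here. Of 25399 listed genes, 148 symbols belong to more than 1 gene. Barcodes with at least 200 genes, at most 10000 UMIs and at most 5% mitochondrial UMIs were kept (30746 of 37048, with 4568143 to 17296625 UMIs per library). Marker counts chose the fibroblasts, and raw counts were summed per library. The sums were compared in edgeR 4.0.16 under R 4.3.3, by the two-sided quasi-likelihood test with filterByExpr, TMM factors and p-values adjusted by Benjamini-Hochberg. Differences in effect between cell classes used the library as a block. DESeq2 1.42.0 was an alternative, and shares were compared by exact permutation tests. CPM are not corrected for gene length, so levels were compared within a gene only. The scripts were tested on simulated data.

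Scrublet's automatic threshold (scanpy 1.11.5) marked at most 4 barcodes per library and had not worked, so likely doublets were taken by rank and left in the main values. Leiden clustering (leidenalg 0.10.2) at resolution 0.5 on 1000 variable genes grouped the nuclei. Named were the rule genes, the 20 genes of largest ratio to other nuclei, the 10 of smallest p, those whose effect differed (or the 3 of smallest p), the 8 leading genes of each group of nuclei, and per list the 3 most abundant genes and the 1 of smallest p. Other genes were named after their values were seen. A few genes that meet the rule are not reported here. The members and lists were chosen with earlier results of these data known.

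A set code in the library names, of unstated meaning, is P1117B for 2-kidney replicates 3 and 4 and P1117 for the other 5, so P1117B holds no 1-kidney library. All 7 libraries carried UMIs of the Y-linked genes Kdm5d (at least 547) and Eif2s3y (at least 227). Replicate numbers follow accession order. In summed nuclei, fewer transcripts per nucleus and a different mix of nuclei cannot be told apart. Alternatives were RLE scaling, other count filters, other marker rules, no UMI ceiling, no likely doublets, no tubule-rich nuclei, no P1117B, the set as a term, and each library left out.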

Additional observations from a re-analysis of the deposited data

Results flagged for a closer look

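In the 2-kidney libraries the level of Pdgfra, Col1a1, Col3a1 and Dcn over all retained nuclei was 107 CPM in replicate 1 and 43.8 to 51.1 in the other 3, a gap beyond the 95% bound for 1 sample far from the rest of a group of 4. Of 57 groups of values examined this way 1 showed such a gap, and chance gives about 1 in 20. The group difference of Akap12 in fibroblasts lay 3.03 below that in endothelial nuclei on the log2 scale (−3.03, adjusted p = 0.0275 in edgeR's test), with 4 UMIs in all 1-kidney fibroblasts. That of Adamts9 also differed (−1.89, adjusted p = 0.0176 in edgeR's test), with 1-kidney replicate 1 apart from the other 1-kidney libraries.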

How the results depend on the processing

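In all 15 alternatives for the share of fibroblasts, the 2-kidney libraries lay above the 1-kidney libraries without overlap, with ratios from 2.40 to 10.4. In 7 of them the exact permutation p ran from 0.0571 to 0.114, and the other 8 (without P1117B or without 1 library) could not go below 0.0667 or 0.1, so their p says nothing about stability. The count of genes changed, 0 in edgeR's test, was 7 with DESeq2, 53 (50 of them lower) without a filter on low counts, 2 with a stricter filter (Chd1l and Vcl) and 5 without likely doublets (Chd1l, Slc27a2, Cyp4a8, Vcl and Cisd1). It stayed at 0 with RLE scaling, the set as a term, the stricter and looser rules, no UMI ceiling, no tubule-rich nuclei, no P1117B, and in each of the 7 fits without 1 library. The wider rule, added after seeing the data, gave 0, but 58 with DESeq2 and 30 without P1117B. Leaving out 1 library under the wider rule gave 1 without 1-kidney replicate 3 (Kcnab1), 2 without 2-kidney replicate 1 (Dennd2b and G6pc), 8 without 2-kidney replicate 4, and 0 for the other 4 libraries. The 2 genes whose effect differed from endothelial nuclei became 0 with RLE scaling, 0 without P1117B, and 0 to 13 when 1 library was left out, with 13 without 1-kidney replicate 1. RLE scaling moved the median difference in effect over all genes from −0.39 to −0.13. Against all other nuclei the count of 0 became 1 with RLE scaling (Tox3) and 0 to 10 when 1 library was left out, with 10 without 1-kidney replicate 1. The cause was not tested. List medians, without the genes of each rule, were below 0 in 28 of 28 settings (the fit without a count filter not among them) for matrix glycoproteins, collagens, proteases, TGF-beta, growth factor, Wnt and hedgehog, stromal transcription factor and contractile genes. In the setting nearest to 0 they reached −0.09 for collagens and −0.12 for growth factor genes. The median of all tested genes was below 0 in 21 of the 28 settings (−0.30 to 0.03). The settings share nuclei and libraries, so their number is no measure of agreement. Among lists of at least 5 tested genes, other medians changed sign, from −0.81 to 0.43 for collagen processing (18 of 28 below 0), −1.31 to 0.17 for regional genes (27), −0.95 to 0.29 for chemokine, complement and adhesion genes (27) and −0.68 to 0.48 for glucocorticoid response genes (11). The 31 fibroblasts of the 1-kidney libraries limit every gene result. No paired analysis was possible because the replicate numbers follow accession order and the labels pair no animals.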
